A study of Mus musculus with 4 samples.

Results

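Of the 9 control enzymes and regulators of glycolysis and gluconeogenesis examined in mouse liver, 8 were measured, among 22180 genes in all. They were selected by name, with earlier results of these data known. Pklr, Pfkl, Pfkfb3, Pfkfb1, Gckr and Gpd2 were placed on the side of glycolysis, and G6pc, Fbp1 and Pck1 on the side of gluconeogenesis. Only probe sets annotated to 1 gene were used, the brightest on average where a gene had several, and each of the 8 had a single one. No probe set was annotated to Pfkfb1, the liver form of the bifunctional enzyme that makes and breaks down fructose-2,6-bisphosphate, so Pfkfb1 was not analysed here.

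Liver RNA of C57BL/6 mice older than 2 months was combined by genotype and diet into 4 pools, and each pool was hybridised to 1 array. The WT (wild-type) chow pool held RNA of 7 mice on regular chow. The WT pools on a diet of 70% fructose held RNA of 7 mice fed for 3 weeks and of 4 mice fed for 2 weeks. The Chrebp-null pool held RNA of 6 Chrebp-/- mice, written as Chrebp null, that ate the same diet for 2 weeks. The nature of the null allele is not described in the sources used here, and each pool mixed males and females in proportions that are not given there. The design compares fructose for 3 weeks with chow in WT mice, and Chrebp-null with WT mice after 2 weeks of fructose; these comparisons share no array.

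Glycolysis splits glucose into pyruvate, and gluconeogenesis builds glucose from pyruvate, lactate, amino acids and glycerol. Both run through the same reversible steps, but the steps from glucose to glucose 6-phosphate, from fructose 6-phosphate to fructose 1,6-bisphosphate and from phosphoenolpyruvate to pyruvate are each catalysed by opposed enzymes, and control of both pathways is exerted there. Fructose enters the liver pathway below phosphofructokinase as triose phosphates. Mlxipl encodes ChREBP, which senses sugar metabolites, regulates transcription and binds carbohydrate response elements, of which the one in the liver promoter of Pklr was among the first described.

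All values are log2 expression levels, and a difference is the log2 level on 1 array minus that on another. With 1 array per group there is no spread between replicates, no test was possible, and precision is limited by the small number of arrays. Genes entered a comparison when their brighter array reached 3.52, the median of all genes' mean levels, here called the floor, and such genes are called assessed. A 2-fold difference, 1 on the log2 scale, was the size required for a count. All 32 member values lay above the floor, the lowest at 4.33. The arrays had medians between 3.11 and 3.17 and correlated with Pearson's r between 0.974 and 0.983 over 41345 probe sets. The 2-week WT array had the fewest genes reaching the floor, 10869, where the others had 11209 to 11239, so the member values that rest on it are given beside those from the 3-week WT array. Mlxipl itself read 9.25 on chow, 9.64 and 9.83 in WT after 3 and 2 weeks of fructose, and 8.09 in the null pool. The 7 hepatocyte marker genes measured, among them Alb and Ttr, read between 11.46 and 12.72 in every pool.

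In the Chrebp-null pool, enzymes of both opposed pathways were lower together. Pklr (liver pyruvate kinase), G6pc (glucose-6-phosphatase), Pfkfb3, Gpd2 and Fbp1 (fructose-1,6-bisphosphatase) were at least 2-fold below the 2-week WT pool, which is 5 of the 8 measured, while 1.43% of the 11631 genes assessed were at least 2-fold lower. None of the 8 was at least 2-fold higher, against 2.03% of all genes. Because the members were chosen with earlier results of these data known, these counts describe the list and are not an independent test. The median of the 8 was -1.22, beside 0.10 over all genes assessed, and Pck1 and Pfkl, at -0.09 and -0.08, were the members with the smallest differences. With the dependence of differences on level taken out by a smoothed trend, 1.34% of all genes were higher and 1.68% lower, and the same count of 5 members was lower. In pooled liver RNA, fewer cells of a type and less RNA per cell cannot be told apart.

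Against the 3-week WT pool, which shares the null array with that comparison, 4 members were at least 2-fold lower, beside 1.95% of 11772 genes, and none was higher, beside 3.38%. These were Pklr, G6pc, Gpd2 and Fbp1; Pfkfb3 stood at -0.67. The median over all genes was 0.11 here and 0.0025 once the trend with level was removed, with 2.26% of genes then lower and 2.42% higher.

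Fructose feeding of WT mice gave smaller differences. After 3 weeks no member differed from chow by 2-fold; 0.64% of 11717 genes were at least 2-fold higher and 1.16% lower, or 0.802% and 0.862% with the trend removed. The members lay between -0.37 for Pfkl and 0.91 for Gpd2, with a median of 0.28 beside -0.05 over all genes. After 2 weeks Pklr alone was at least 2-fold above the same chow array, 1 of 8 beside 0.783% of 11622 genes, and none was lower, beside 1.41%; with the trend removed, the shares of all genes were 0.921% and 1.09%. The median of the 8 was then 0.65, beside -0.04 over all genes.

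**Figure D1:**
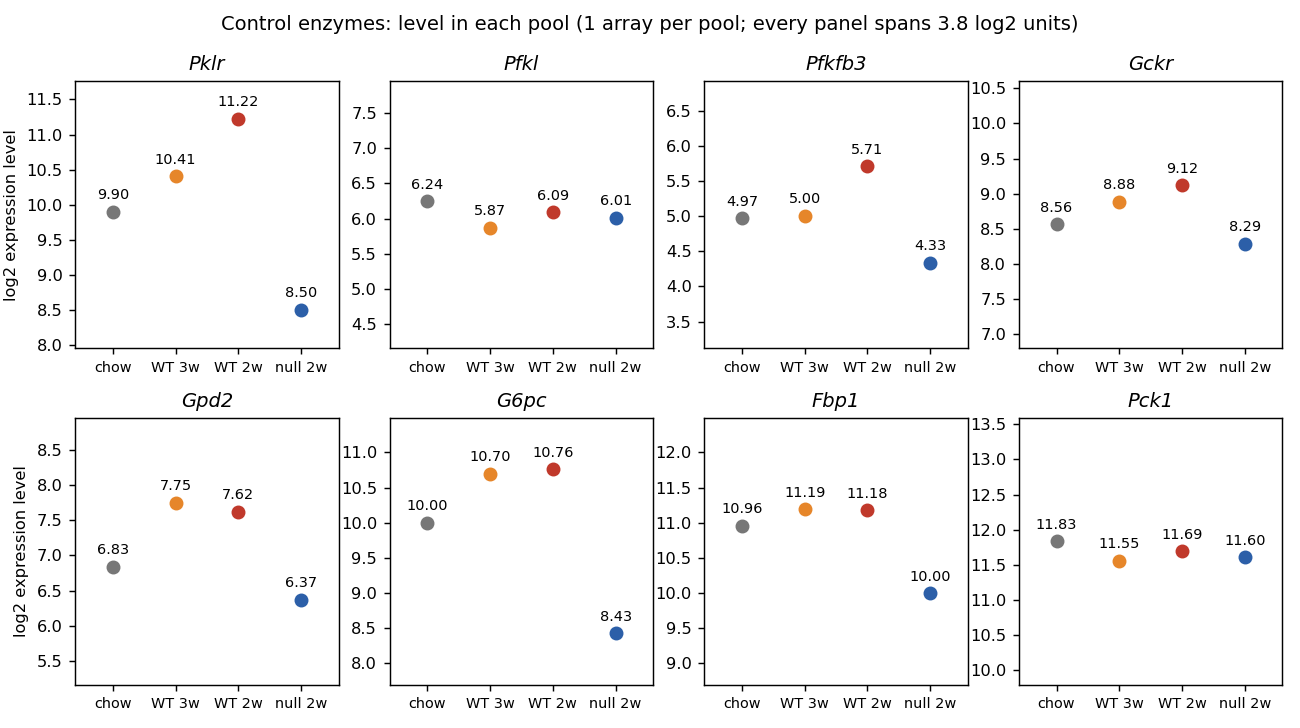
Log2 expression level (vertical axis) of the 8 measured members in the 4 pools (horizontal axis: WT chow, WT after 3 weeks and 2 weeks of fructose, Chrebp null after 2 weeks). Each point is 1 array, so there are no error bars, and every panel spans the same log2 range. Pklr, G6pc, Pfkfb3, Gckr, Gpd2 and Fbp1 were lowest in the null pool, while Pfkl and Pck1 stayed within 0.37 and 0.28 over all pools.

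Pklr encodes the pyruvate kinase of liver and red cells, which makes pyruvate and ATP from phosphoenolpyruvate. It read 9.90 on chow, 10.41 in WT after 3 weeks of fructose, 11.22 in WT after 2 weeks and 8.50 in the null pool (probe set 17399266). The 2-week WT pool was thus the highest and the null pool the lowest, below chow. On the linear scale the null pool held 15.2% of the signal of the 2-week WT pool, a difference of -2.72, which was rank 15 from the lowest of the genes assessed. Against the 3-week WT pool the difference was -1.91. The WT fructose pools themselves differed by -0.81 (3 weeks minus 2 weeks), so the difference over chow was 0.51 at 3 weeks and 1.32 at 2 weeks.

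The RefSeq promoter table of GRCm38.p6 holds 2 start sites of Pklr, 481 bases apart. The 250 bases before the downstream one are shown because they hold the only match of the 9 genes to the spaced form of a carbohydrate response element, CACGNG and CNCGTG with 5 bases between them, which is in capitals. They lie at chr3:89136373-89136622 on the plus strand.

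Pklr: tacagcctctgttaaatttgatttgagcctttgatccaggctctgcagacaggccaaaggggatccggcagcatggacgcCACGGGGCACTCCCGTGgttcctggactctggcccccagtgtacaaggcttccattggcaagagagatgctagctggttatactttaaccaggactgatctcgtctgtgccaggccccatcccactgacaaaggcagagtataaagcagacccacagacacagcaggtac

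The match begins 170 bases before the start. The form is its own reverse complement, so any match to it reads on both strands. Of all 32851 promoter windows in the table (250 bases before to 50 after a start), 15 held this form, which is 0.0457%. Of the 14 genes they belong to, 9 were measured and 5 were assessed in the null comparison. Among those 5, Pklr stood at -2.72, and A430005L14Rik, Crybg3, Fam124a and Irak1bp1 lay between -0.26 and 0.36.

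At the phosphofructokinase step, the enzyme and its regulator differed. Pfkl encodes liver phosphofructokinase, which makes fructose 1,6-bisphosphate. It read 6.24 on chow, 5.87 and 6.09 in WT after 3 and 2 weeks of fructose, and 6.01 in the null pool. The chow pool was the highest and the 4 levels lay within 0.37. The null pool differed from the 2-week and 3-week WT pools by -0.08 and 0.14, the latter turning to -0.017 when the trend with level was removed.

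Pfkfb3 encodes a bifunctional enzyme that mainly makes fructose-2,6-bisphosphate, the allosteric activator of phosphofructokinase and inhibitor of fructose-1,6-bisphosphatase. It read 4.97 on chow, 5.005 and 5.71 in WT after 3 and 2 weeks of fructose, and 4.33 in the null pool. The 2-week WT pool stood apart as the high one, and the null pool was the lowest. The null pool held 38.5% of the 2-week WT signal (-1.38) and 62.8% of the 3-week one (-0.67), so the 2-fold count rests on the 2-week array. Pfkfb3 was also the dimmest of the members, and with a floor at the 75 percentile of genes it was no longer assessed. Over chow it stood at 0.04 after 3 weeks, or -0.0029 with arrays centred on their medians, and at 0.74 after 2 weeks.

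A start site of Pfkfb3 in the same table had a CACGTG, the core hexamer of an E-box, beginning 53 bases before it. It is shown in capitals within the 100 bases before that start, chr2:11502091-11502190 on the minus strand, because it was the only such hexamer in the 15 windows of the 9 genes. Of all windows, 7.15% held it.

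Pfkfb3: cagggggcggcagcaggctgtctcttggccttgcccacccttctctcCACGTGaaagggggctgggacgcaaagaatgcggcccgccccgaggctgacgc

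Gckr encodes a regulatory protein of the hepatocyte that binds fructose phosphates. It read 8.56 on chow, 8.88 and 9.12 in WT after 3 and 2 weeks of fructose, and 8.29 in the null pool. The order of the pools was that of Pklr and Pfkfb3, over a narrower range of 0.83. The null pool held 56.1% of the 2-week WT signal (-0.83) and 66.1% of the 3-week one, and no difference passed 2-fold.

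Gpd2 encodes the mitochondrial glycerol 3-phosphate dehydrogenase of the glycerol phosphate shuttle. The shuttle as a whole passes electrons of cytosolic NADH to the respiratory chain and so regenerates the NAD that glycolysis uses. Gpd2 read 6.83 on chow, 7.75 and 7.62 in WT after 3 and 2 weeks of fructose, and 6.37 in the null pool. Both WT fructose pools were above chow and the null pool below it. Gpd2 had the largest difference of the members over chow at 3 weeks, 0.91, a ratio of 1.88 and rank 112 from the highest of 11717 genes. The null pool held 41.9% of the 2-week WT signal (-1.25) and 38.5% of the 3-week one (-1.38).

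G6pc encodes the catalytic subunit of glucose-6-phosphatase, the last step of glucose release shared by gluconeogenesis and glycogen breakdown. It read 9.999 on chow, 10.70 and 10.76 in WT after 3 and 2 weeks of fructose, and 8.43 in the null pool (probe set 17256707). The WT fructose pools differed by 0.06 in size, both above chow, and the null pool was far below all of them. It held 19.9% of the 2-week WT signal (-2.33, rank 23 from the lowest) and 20.7% of the 3-week one (-2.27, rank 49 of 11772). Over chow the differences were 0.70 at 3 weeks and 0.76 at 2 weeks.

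The promoter of G6pc is shown beside that of Pck1, because these gluconeogenic genes stood at -2.33 and -0.09 in the same comparison. The G6pc bases are chr11:101367466-101367715 and the Pck1 bases chr2:173152823-173153072, both GRCm38.p6, plus strand, ending just before the start. Capitals mark GTTAAT, an arm of the binding site of hepatocyte nuclear factor 1, on either strand (ATTAAC in Pck1), and TGTTTTG, a letter form of forkhead sites in insulin response sequences.

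G6pc: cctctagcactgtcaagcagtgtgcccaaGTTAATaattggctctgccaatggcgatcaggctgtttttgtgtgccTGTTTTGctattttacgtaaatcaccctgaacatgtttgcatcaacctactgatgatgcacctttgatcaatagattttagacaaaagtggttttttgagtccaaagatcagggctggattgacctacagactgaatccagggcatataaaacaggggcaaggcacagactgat

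Pck1: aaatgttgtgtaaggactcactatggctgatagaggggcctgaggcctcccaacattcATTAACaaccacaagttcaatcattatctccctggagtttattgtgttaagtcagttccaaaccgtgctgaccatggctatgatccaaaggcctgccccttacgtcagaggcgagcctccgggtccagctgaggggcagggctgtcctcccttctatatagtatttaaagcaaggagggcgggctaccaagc

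In G6pc, GTTAAT began 221 and TGTTTTG 174 bases before the start, and in Pck1 the reversed GTTAAT lay 192 bases before it. GTTAAT stood in 7.10% and TGTTTTG in 6.28% of all windows. Gckr held both as well, 59 and 83 bases before its start, and a start site of Pfkfb1 had GTTAAT beginning 114 bases before it. The full cyclic AMP element TGACGTCA, present in 1.79% of windows, was not among the letters of the members' windows. Only these exact letters were searched, so variant forms of the element in these windows were not assessed. All 5 motifs were searched on both strands, and CACGTG can overlap the spaced form. Fbp1, Pfkl and Gpd2 held none of the 5. A match describes letters in a window and nothing about binding.

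Fbp1 encodes fructose-1,6-bisphosphatase, the gluconeogenic opponent of phosphofructokinase. It read 10.96 on chow, 11.19 and 11.18 in WT after 3 and 2 weeks of fructose, and 9.997 in the null pool. The 3 WT pools lay within 0.23, and the null pool was below all of them. It held 44.1% of the 2-week WT signal (-1.18) and 43.7% of the 3-week one (-1.19).

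Pck1 encodes cytosolic phosphoenolpyruvate carboxykinase, the step from oxaloacetate to phosphoenolpyruvate. It read 11.83 on chow, 11.55 and 11.69 in WT after 3 and 2 weeks of fructose, and 11.60 in the null pool. All 4 levels lay within 0.28, with chow the highest.

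**Figure D2:**
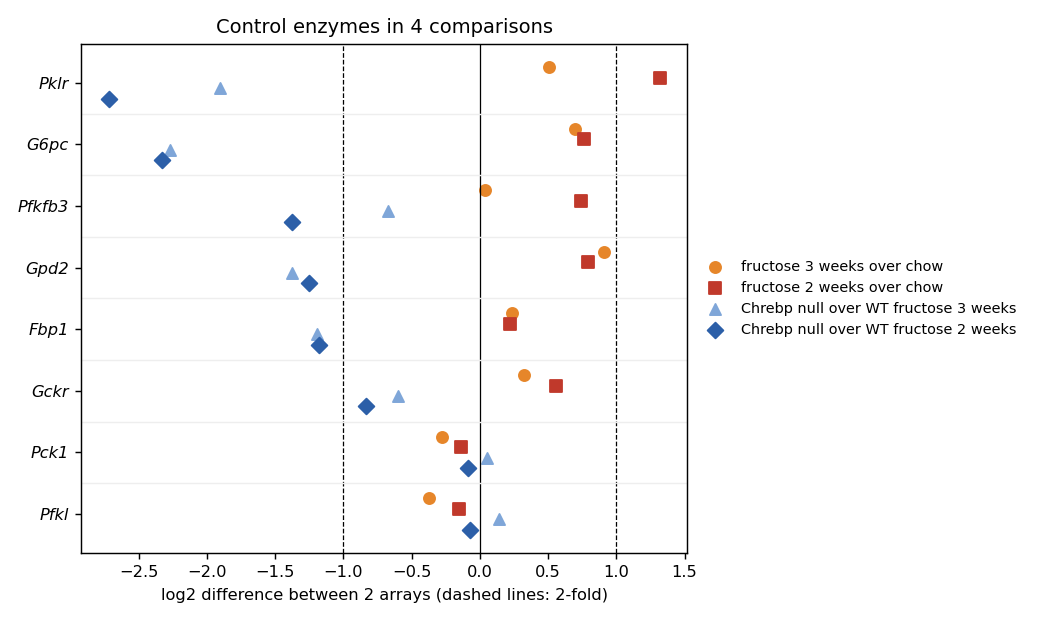
Log2 difference between 2 arrays (horizontal axis) for each measured member (rows) in 4 comparisons. These are fructose for 3 weeks (circles) and 2 weeks (squares) over the same chow array, and the same Chrebp-null array over WT after 3 weeks (triangles) and 2 weeks (diamonds). Dashed lines mark 2-fold. Pklr and G6pc reach -2.72 and -2.33 in the null pool, and Pck1 and Pfkl lie between -0.37 and 0.14 in all 4 comparisons.

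The null pool on fructose was also compared with WT mice on chow, with arrays that both stand in comparisons above. All 8 members were lower there, from -0.23 for Pck1 to -1.57 for G6pc, and 2 were at least 2-fold lower, G6pc and Pklr (-1.40), beside 1.43% of 11720 genes. Fbp1 stood just short of the threshold at -0.96, with 51.4% of the chow signal, and Pfkfb3 at -0.63. The null pool held 33.7% of the chow signal of G6pc and 37.9% of that of Pklr. Gpd2 and Gckr, at -0.46 and -0.28, were nearer to chow.

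The WT fructose pools, which differ in weeks and in mice, serve as a measure of how far pools of the same genotype and diet can lie apart. They differed by at least 2-fold in 2.37% of 11648 genes, in either direction, and in none of the 8 members. Pklr and Pfkfb3 were the members farthest apart, lower at 3 weeks by -0.81 and -0.71. Gckr and Pfkl stood at -0.24 and -0.22, Pck1 at -0.14, G6pc at -0.06, Gpd2 at 0.12, and Fbp1 at 0.01, or -0.037 with centred arrays. The null differences of Pklr and Pfkfb3 therefore moved most with the choice of the WT pool, and those of G6pc, Fbp1 and Gpd2 moved by 0.06, 0.01 and 0.12.

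**Figure D3:**
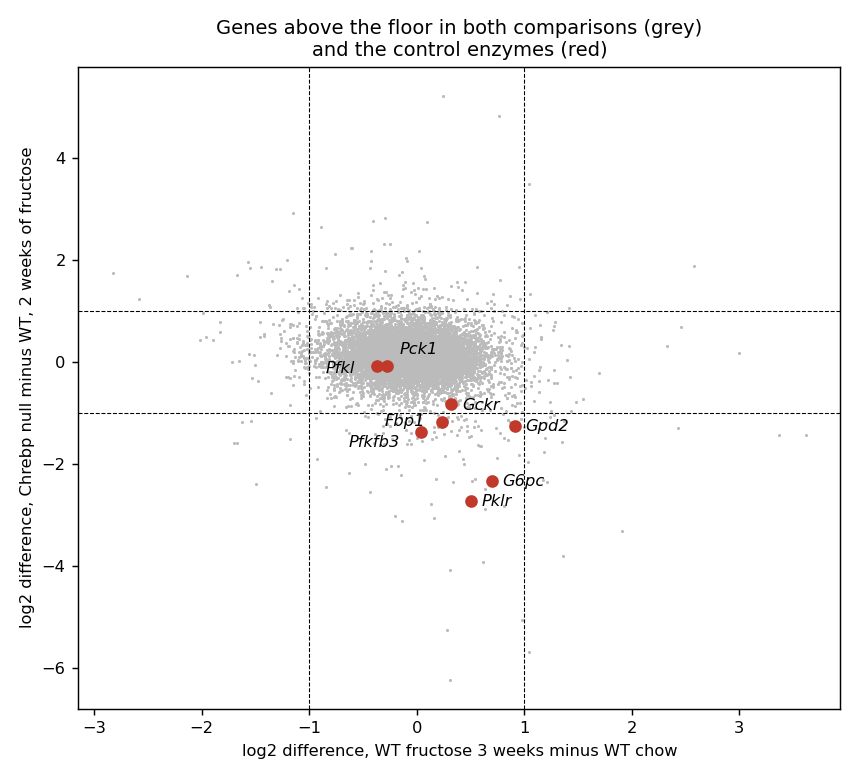
Log2 difference of WT after 3 weeks of fructose minus chow (horizontal axis) against Chrebp null minus WT after 2 weeks of fructose (vertical axis), 2 comparisons that share no array. Points are all genes at or above the floor in both (grey) and the 8 members (red). Dashed lines mark 2-fold. Pklr, G6pc, Gpd2, Fbp1, Gckr and Pfkfb3 lie right of 0 and below 0 (Pfkfb3 at 0.04, or -0.0029 with centred arrays), and Pfkl and Pck1 lie at -0.37 and -0.28 on the horizontal axis.

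Because opposed enzymes share substrates, their differences were set against each other within the same arrays, where any overall scaling cancels. The levels of different genes were not compared, only how unequally they differed between pools. The Pklr to Pck1 ratio was lower in the null pool than in the 2-week WT pool by -2.63 on the log2 scale, a factor of 6.20, and lower than in the 3-week WT pool by -1.96. Over chow the same ratio was higher by 0.78 at 3 weeks and 1.46 at 2 weeks of fructose. At the next pair the direction was the other way. The Pfkl to Fbp1 ratio was higher in the null pool by 1.11 and 1.34 against the 2-week and 3-week WT pools, and lower by -0.61 and -0.38 over chow after 3 and 2 weeks of fructose. Pklr and G6pc, which stand on opposite sides, differed almost in parallel in the null pool, with a ratio difference of -0.39 against the 2-week and 0.36 against the 3-week WT pool.

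Isozymes, which carry out the same reaction and are encoded by other genes, were all within 2-fold between the null and the 2-week WT pool where assessed. The same held for most genes, as 1.43% of all assessed there were at least 2-fold lower and 2.03% higher. Pkm, the pyruvate kinase of most other tissues, stood at 0.01 in the null pool over the 2-week WT pool, beside -2.72 for Pklr, and at 0.58 over the 3-week one, beside -1.91. G6pc3, the widely expressed glucose-6-phosphatase, stood at 0.38 and 0.69 in the same order, beside -2.33 and -2.27 for G6pc. Pck2, the mitochondrial phosphoenolpyruvate carboxykinase, stood at 0.77 beside -0.09 for Pck1. Against the 3-week WT pool Pck2 was 2-fold higher, at 1.28, and against chow at 1.37.

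Among the phosphofructokinases, Pfkp, the platelet form, stood at -0.58 against the 2-week and -0.34 against the 3-week WT pool, and Pfkm, the muscle form, at 0.08 and 0.58, beside -0.08 and 0.14 for Pfkl. The other bifunctional enzymes Pfkfb2 and Pfkfb4 stood at 0.06 and 0.22 against the 2-week pool, beside -1.38 for Pfkfb3, and at 0.19 and 0.43 against the 3-week pool, beside -0.67. Gpd1, the cytosolic partner of Gpd2 in the glycerol phosphate shuttle, stood at -0.71 against the 2-week and 0.38 against the 3-week WT pool. Over chow Gpd1 stood at -0.52 after 3 weeks of fructose, where Gpd2 stood at 0.91. After 2 weeks both were above chow, Gpd1 at 0.57 and Gpd2 at 0.79. The WT fructose pools differed by -1.09 for Gpd1 (3 weeks minus 2 weeks), so its sign depended on the WT pool. The hexokinases Hk1, Hk2 and Hk3 lay between -0.26 and 0.15 in the null comparison and between -0.40 and 0.18 at 3 weeks over chow. Hkdc1 and Fbp2 were below the floor in all pools.

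**Figure D4:**
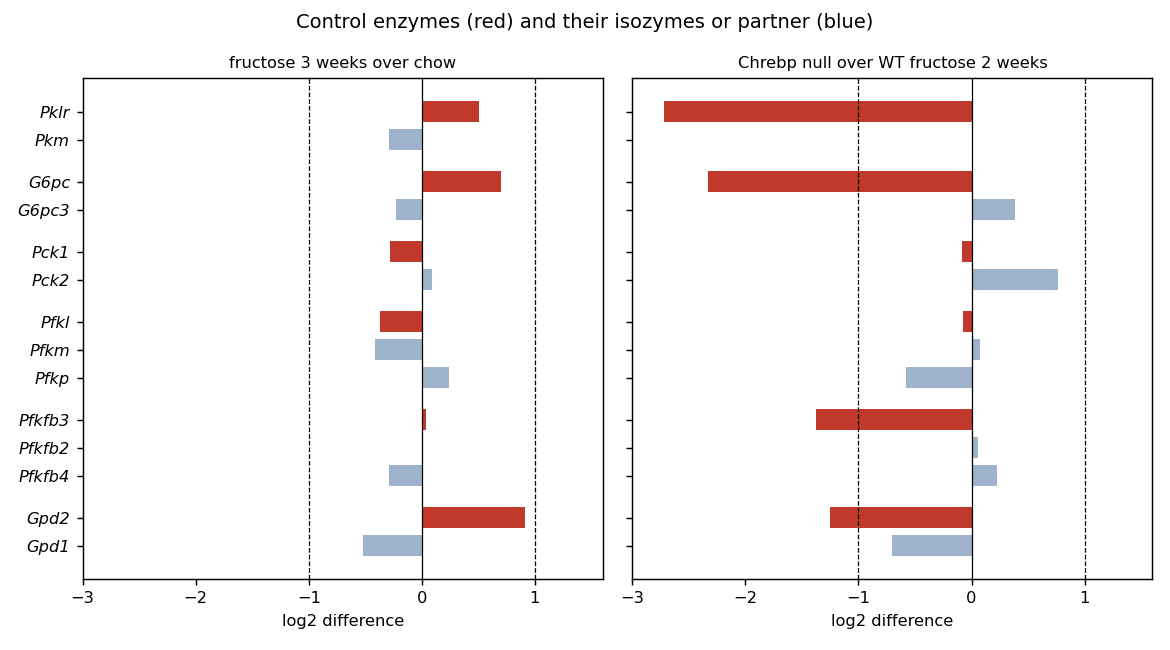
Log2 difference (horizontal axis) of 6 of the enzymes (red) and of their isozymes, or for Gpd2 its shuttle partner Gpd1 (blue), in fructose for 3 weeks over chow (left) and Chrebp null over 2-week WT (right); dashed lines mark 2-fold and each bar is the difference of 2 arrays. In the right panel Pklr reaches -2.72 beside 0.01 for Pkm, and G6pc -2.33 beside 0.38 for G6pc3.

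The patterns of the members over the 4 pools were compared by the Euclidean distance between their log2 levels, each centred on its own mean. Pfkl and Pck1 were the closest pair, at 0.08, as the members with the narrowest ranges. Pfkfb3 and Gckr followed at 0.44, and Pklr and G6pc lay 0.55 apart. Pklr and Pfkl were the most distant at 1.99. Over all genes above the floor, Lpin1, a phosphatidic acid phosphatase of triglyceride synthesis, was nearest to both Pklr (0.45) and G6pc (0.13). Lpin1 read 9.86 on chow, 10.50 and 10.72 in WT after 3 and 2 weeks of fructose, and 8.24 in the null pool. For Pklr the others were G6pc, the microRNA gene Mir1948, Tmie and Tkfc, which encodes triokinase, with distances from 0.55 to 0.64. For G6pc they were Cmah, Gabbr2, the small nucleolar RNA gene Snora31 and Ep400, with distances from 0.32 to 0.50. With only 4 pools, many genes can show a similar order, and these distances describe these arrays alone.

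Among the other enzymes and carriers listed for glycolysis and gluconeogenesis, with regulators listed apart, no gene assessed was 2-fold lower in the null pool than in either WT fructose pool. Of 23 other glycolysis enzymes listed, 19 were measured and 18 assessed against the 2-week WT pool. There 1 was at least 2-fold higher and none lower, beside 2.03% and 1.43% of all genes. Their median was 0.10, the same as over all genes. The exception was Aldoc, the brain-type aldolase, which read 6.39 on chow, 5.34 and 5.58 in WT after 3 and 2 weeks of fructose, and 6.63 in the null pool. It was higher in the null pool by 1.06 and 1.30 against the 2-week and 3-week WT pools, and lower at 3 weeks over chow by -1.05, the 1 gene of 17 assessed there past 2-fold. Tigar, a fructose-2,6-bisphosphatase, and Tpi1, triose phosphate isomerase, stood at 0.46 and 0.34 against the 2-week WT pool, and at 0.66 and 0.08 against the 3-week one. Bpgm, which makes 2,3-bisphosphoglycerate, stood at -0.66 at 3 weeks over chow.

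Of 14 other genes of gluconeogenesis, 12 were assessed, and none passed 2-fold in either main comparison. The medians were 0.14 in the null pool and -0.12 at 3 weeks over chow. Slc37a4, the carrier that brings glucose 6-phosphate to G6pc inside the endoplasmic reticulum, stood at -0.71 against the 2-week WT pool and -0.16 against the 3-week one. Pcx, pyruvate carboxylase, stood at -0.50 and -0.25. Gpt, the alanine transaminase, stood at 0.58 and 0.61, and at -0.78 over chow after 3 weeks of fructose. The glucose carrier Slc2a2, the main one of hepatocytes, stood at -0.71 and -0.11, and Slc2a1 at 1.03 and 0.75. Of 5 glucose carriers assessed, 1 was 2-fold higher against the 2-week WT pool and none against the 3-week one. None was 2-fold lower against either. Over all genes assessed, 2.03% and 3.38% were higher against these pools, and 1.43% and 1.95% lower.

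At the entry of pyruvate into mitochondria, 2 of 13 genes assessed were at least 2-fold higher in the null pool than in the 2-week WT pool. Against the 3-week one 1 was, with none lower in either and medians of 0.06 and 0.17. Over all genes assessed, 2.03% and 3.38% were higher and 1.43% and 1.95% lower, with medians of 0.10 and 0.11. Pdk4, a kinase that inactivates pyruvate dehydrogenase, read 5.12 on chow, 5.16 and 5.79 in WT after 3 and 2 weeks of fructose, and 7.09 in the null pool. It was thus higher there by 1.30 and 1.93 against the 2-week and 3-week WT pools, and by 1.97 against chow. Pdp1, a phosphatase that reactivates the complex, stood at 1.18 and 0.43; its level of 3.28 after 2 weeks in WT was under the floor. Pdk1 stood at -0.94 and -0.88. At 3 weeks over chow none of the 13 passed 2-fold and the median was -0.15; 11 lay below 0, as did 6619 of the 11717 genes assessed.

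**Figure D5:**
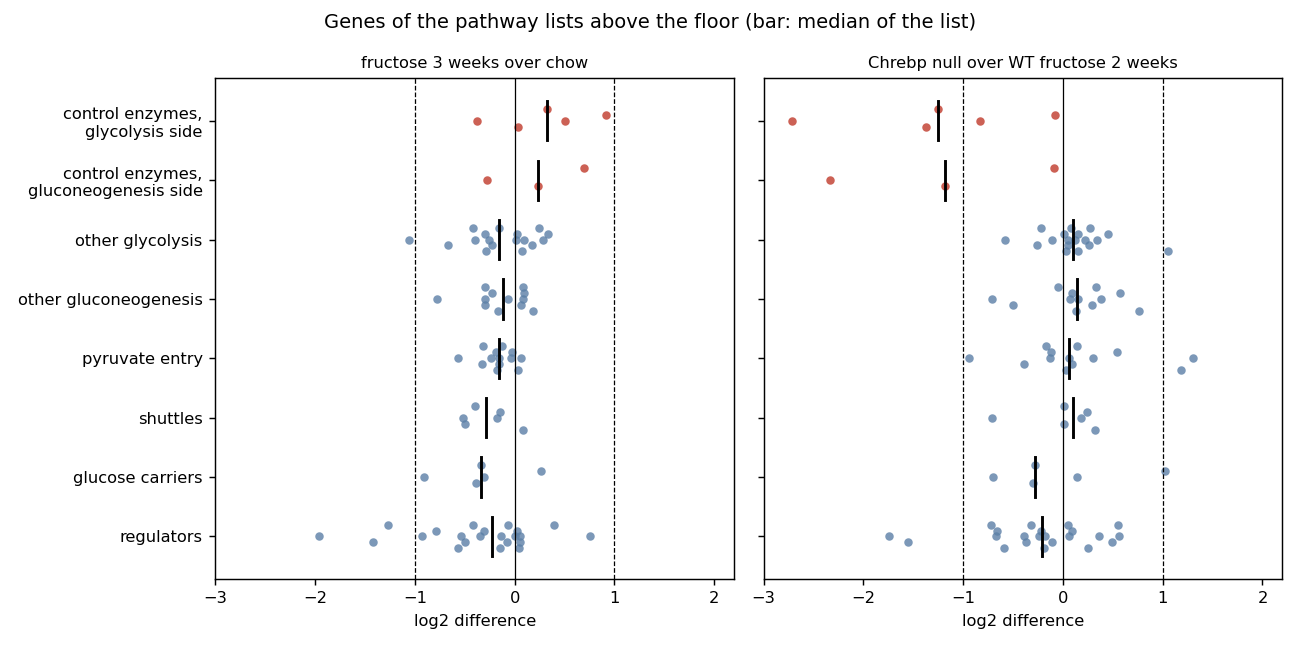
Log2 difference (horizontal axis) of the genes above the floor in each pathway list (rows), for fructose for 3 weeks over chow (left) and Chrebp null over 2-week WT (right); each point is a gene, the black bar is the median of its list and dashed lines mark 2-fold. The members (red) have medians of -1.25 on the glycolysis side and -1.18 on the gluconeogenesis side in the right panel, where the medians of the other lists lie between -0.28 and 0.14.

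Other features of the null pool moved along with these differences, and their part in them was not tested. Xist, expressed from the inactive X chromosome of females, read 8.84 on chow, 8.77 and 8.56 in the WT fructose pools, and 7.04 in the null pool. Eif2s3y, Kdm5d and Uty, which are on the Y chromosome, were higher in the null pool than in the 2-week WT pool by 0.84, 0.76 and 0.53, and than in the 3-week WT pool by 1.34, 1.11 and 0.72. Of 5 male-biased liver genes, 4 were at least 2-fold lower than in the 2-week WT pool and all 5 than in the 3-week one, and the log2 of their summed signal was 10.96, 11.08, 10.30 and 7.23 in the same order of pools. For the 3 female-biased genes measured it was 12.12, 12.42, 11.96 and 11.08, with 1 gene 2-fold higher and 1 lower against the 2-week WT pool. The higher one, Sult2a1, read 7.67 on chow, 7.57 and 4.67 in WT after 3 and 2 weeks of fructose, and 6.72 in the null pool. Against the 3-week WT pool all 3 were lower, 2 of them at least 2-fold, and against chow all 3 were lower, 1 of them at least 2-fold. Over all genes assessed, 1.43% were at least 2-fold lower and 2.03% higher against the 2-week WT pool. The shares were 1.95% and 3.38% against the 3-week one, and 1.43% were lower against chow.

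Cell type markers lay closer together. The log2 summed signal ranged over the pools from 14.91 to 14.95 for 7 hepatocyte markers, from 9.73 to 10.19 for 5 of Kupffer cells, from 9.90 to 10.31 for 5 of endothelial cells, from 10.47 to 10.73 for 5 of stellate cells, from 6.03 to 6.67 for 4 of cholangiocytes, of which only 2 had mean levels at the floor or above, and from 6.76 to 7.00 for 3 of lymphocytes. Lyve1 of the endothelial list read 7.07 on chow, 7.88 and 8.20 in WT after 3 and 2 weeks of fructose, and 7.19 in the null pool. It was the only marker of these lists past 2-fold against the 2-week WT pool, at -1.01, and stood at -0.69 against the 3-week one. There Sox9 of the cholangiocyte list was the only one past 2-fold, at 1.19. The neutrophil, adipose, skeletal muscle and pancreas markers had mean levels below the floor, with 3, 2, 2 and 1 genes measured.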

How the data were processed

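Per the labels' protocols, pooled liver RNA was labelled with an Affymetrix WT Plus kit. The values the authors deposited are log2 levels, 1 per probe set and array, made with affy and RMA per the submitters' processing notes. Tool versions, settings and joint processing of the arrays are unknown here. RMA tends to compress large differences. Values were used as deposited.

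The platform annotation gave 1 symbol for 23521 of 41345 probe sets, several for 1814 and none for 16010; only the first were used. The rules for floor, threshold and brightest probe set are given above. With 1 array per group no error, p-value or replicate check exists. All 9 members, their isozymes, up to 4 genes per list and main comparison, and the 5 nearest patterns of Pklr and G6pc could be named; A430005L14Rik, Crybg3, Fam124a and Irak1bp1 were named after their values were seen. Members and lists were chosen with earlier results of these data known. Coordinates and sequences come from RefSeq tables of GRCm38.p6, which hold windows for all 9 members; the build behind the array annotation is not given. The alternatives tried were median centring, quantile normalization, trend removal (lowess, fraction 0.3), the mean of a gene's probe sets, levels set at the floor, leaving out the floor or raising it to the 75 percentile, and 1.5-fold and 3-fold thresholds. Python 3.11.15, numpy 2.4.6, pandas 2.3.3, statsmodels 0.14.6 and matplotlib 3.10.9 were used.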

Additional observations from a re-analysis of the deposited data

How the results depend on the processing

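The 48 member differences over 6 comparisons were recomputed under median centring, quantile normalization and removal of the trend with level, and none crossed 2-fold under any of these 3. The largest shift was 0.16, with the trend removed, and 3 differences near 0 turned sign, as given beside them. The mean of a gene's probe sets, levels set at the floor and leaving out the floor could not move any member, since each had a single probe set and all their values lay above the floor. A floor at the 75 percentile left 4 members in place of 5 in the null pool against the 2-week WT pool, beside 1.87% of all genes lower there. The counts moved with the threshold. At 1.5-fold, 2 members were higher at 3 weeks over chow, beside 3.57% of all genes assessed, and 4 at 2 weeks over chow, beside 3.62%. With the same threshold 6 members were lower in the null pool against the 2-week WT pool, beside 3.79%, and 6 against the 3-week one, beside 5.69%. At 3-fold, 0 were higher at 2 weeks over chow, beside 0.16% of all genes. In the null pool 2 were lower against the 2-week WT pool, beside 0.464%, and 2 against the 3-week one, beside 0.832%. No paired analysis was possible because each group has 1 array. Depth cannot be read from array values.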

Other observations

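Regulators of gluconeogenesis and insulin signalling were measured for 22 of 23 genes listed. At 3 weeks of fructose over chow 3 were at least 2-fold lower and none higher, with a median of -0.23. Over all genes assessed, 1.16% were lower and 0.64% higher, with a median of -0.05. Nr4a1, a nuclear receptor gene induced by glucagon, read 6.20 on chow, 4.24 and 4.92 in WT after 3 and 2 weeks of fructose, and 5.42 in the null pool. Irs2, an insulin receptor substrate, read 7.44, 6.02, 6.18 and 6.73 in the same order, so each fructose pool was below chow. Sik1, a kinase that restrains gluconeogenic transcription, read 8.43, 7.16, 8.25 and 8.81, and only the 3-week pool was 2-fold below chow. In the null pool against the 2-week WT pool, Mlxipl and Srebf1, the gene of a lipogenic factor, were the 2 genes at least 2-fold lower, at -1.74 and -1.55. None was higher, and the shares over all genes assessed were 1.43% lower and 2.03% higher. Mlxipl encodes ChREBP, the factor that the null mice lack, so its place in these counts is not a separate observation. Against the 3-week WT pool 3 regulators were at least 2-fold higher, Sik1 at 1.65, Nr4a1 at 1.17 and Irs1 at 1.04. Only Mlxipl was 2-fold lower, at -1.55. Over all genes assessed, 3.38% were higher and 1.95% lower in that comparison. Klf15, a transcription factor gene of amino acid use in gluconeogenesis, stood at -0.72 against the 2-week WT pool and at -0.32 against the 3-week one. Srebf1 stood at -0.70 against the 3-week WT pool.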
